A study of Homo sapiens with 6 samples.

Results

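The genes described here were 10 genes of the cell skeleton, chosen by name as a list of thymosin, actin, actin-binding, vimentin and galectin genes. They were the beta thymosins TMSB10 and TMSB4X, the cytoplasmic actins ACTB and ACTG1, the actin-binding proteins PFN1, CFL1, CORO1A and ARPC1B, the intermediate filament gene VIM, and LGALS1, which encodes galectin 1. Each count table held 60612 gene IDs, of which these 10 were identified by symbol, and all 10 were among the 15395 genes with enough reads to be tested. Their levels were followed across 3 groups of KO52 cells with 2 libraries each.

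Actin cycles between single subunits and filaments, and the balance sets the shape and movement of a blood cell. Beta thymosins hold single subunits in reserve, profilin hands them to growing filament ends, cofilin cuts older filaments, and the Arp2/3 complex starts new branches, which coronins help to take apart. Vimentin forms a separate network of intermediate filaments that is abundant in cells of mesenchymal and blood origin, and galectin 1 is a small sugar-binding protein found both inside and outside the cell.

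KO52 is an established acute myeloid leukemia cell line, and per the labels all libraries came from this CEBPA double mutant background. Cells were transduced with a lentiviral vector that responds to doxycycline, carrying a dominant negative C/EBP peptide (dnCEBP), a dominant negative FOS peptide (dnFOS) or no peptide (empty vector, EV). Per the study, the control vector expressed GFP, and GFP-positive cells were sorted once doxycycline had been given. C/EBP and AP-1 transcription factors bind DNA as dimers, and each peptide pairs with members of its target family so that the pair cannot bind. The comparisons therefore ask how these genes differ when either family is kept from DNA. The study states how long dnC/EBP was induced where it describes open chromatin, and states no separate duration for the RNA libraries or for dnFOS. The number of transduced clones and whether the 2 libraries of a group came from separate cultures are not given in the sources used here, so p-values measure only the spread between these libraries. KO52 is 1 cell line, and no untransduced cells were analysed here.

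Total counts ran from 9862994 to 27663179 per library, and both dnFOS libraries, at 14583615 and 9862994, were shallower than the other 4. The part of this depth difference in the results below was not tested. Levels are given in CPM, which are counts relative to library size, on library sizes scaled with TMM factors, and a count of 3 was worth between 0.108 and 0.304 CPM of a library's total. All 9 markers of myeloid blasts were detected in every library, with a summed level of 1457.3 to 1537.9 CPM in EV, 1341.8 to 1382.1 in dnCEBP and 1316.4 to 1339.4 in dnFOS. The sum hides differences between markers, as MPO ran from 53 to 239.1 CPM over the libraries, SPI1 from 11.6 to 27 and CD33 from 54.7 to 64.1. The 6 markers of stroma, a cell type rich in vimentin and galectin 1, summed to at most 1.41 CPM, and DCN and LUM were at 0 counts in all 6 libraries. The 5 T cell markers summed to 116.9 to 124.1 CPM in EV, 146.7 to 150.3 in dnCEBP and 92.2 to 106.1 in dnFOS, nearly all of it from CD3D (90.7 to 147.5 CPM), while CD3E had at most 4 counts and CD3G at most 7 in any library. The group means of 6 of the 10 genes, TMSB10, TMSB4X, ACTB, PFN1, VIM and LGALS1, fall in the same order, and the part of this sum in those results was not tested. The summed levels of the 4 B cell, 5 erythroid and 4 epithelial markers reached at most 19.5, 3 and 37.9 CPM.

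Both pairs of paralogs are close in sequence, which matters for telling their reads apart, so their coding strands are shown first. TMSB10 lies on chromosome 2 (84905625 to 84906675, plus strand) and TMSB4X on the X chromosome (12975108 to 12977227, plus strand) of GRCh38 in GENCODE 29. Their coding sequences are 135 bases each, joined from the exons of the principal transcript, and 98 bases (72.6%) are identical. The capitals mark the 37 bases that differ.
TMSB10: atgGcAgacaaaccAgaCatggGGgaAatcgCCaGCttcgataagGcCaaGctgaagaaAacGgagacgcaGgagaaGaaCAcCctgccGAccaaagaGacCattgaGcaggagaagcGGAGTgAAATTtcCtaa
TMSB4X: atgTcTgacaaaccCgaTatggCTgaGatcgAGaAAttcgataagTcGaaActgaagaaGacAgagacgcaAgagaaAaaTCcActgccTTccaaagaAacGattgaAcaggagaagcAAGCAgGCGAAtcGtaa
The longest run shared by the thymosins is 10 bases, far shorter than a read of 75 bases.

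The actins are closer to each other. ACTB lies on chromosome 7 (5527147 to 5563784, minus strand) and ACTG1 on chromosome 17 (81509971 to 81523847, minus strand). Their coding sequences are 1128 bases long and identical at 1029 bases (91.2%), with the longest shared run at 59 bases. Shown are the first 120 bases of each, in which 21 bases differ (capitals).
ACTB: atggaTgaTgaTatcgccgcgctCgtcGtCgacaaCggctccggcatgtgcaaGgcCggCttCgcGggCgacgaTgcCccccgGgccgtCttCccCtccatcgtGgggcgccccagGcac
ACTG1: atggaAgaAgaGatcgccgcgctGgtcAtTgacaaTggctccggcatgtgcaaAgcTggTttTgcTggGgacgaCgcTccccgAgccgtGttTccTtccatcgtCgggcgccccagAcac
No window of 75 bases was shared between the transcripts of ACTB and ACTG1, nor between those of TMSB10 and TMSB4X, so a full-length read without errors could be told apart within either pair. Annotated pseudogenes of the members, 56 in all for 6 members, held together at most 143 counts in any library and at most 0.421% of their member's count, and adding their reads to the members changed none of the members' calls.

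Most of these genes were lower in cells that carried dnFOS. In dnFOS against EV, 6 of the 10 members were lower and 1 was higher at an adjusted p under 0.05 (edgeR quasi-likelihood test, Benjamini-Hochberg adjustment over all 15395 genes), where 7.76% of all tested genes were lower and 7.24% higher. The median log2 fold change of the members was -0.40, against 0.004 for all tested genes. The genes that fell were LGALS1, TMSB10, ACTG1, VIM, TMSB4X and PFN1, ARPC1B rose, and ACTB, CFL1 and CORO1A did not pass the test. Together the 10 genes took 1.03% and 0.973% of all counts with EV, 1.05% and 0.995% with dnCEBP, and 0.829% and 0.775% with dnFOS. In these bulk samples, fewer cells of a type and less RNA per cell cannot be told apart.

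In dnCEBP against EV, edgeR called 1 member higher, TMSB10, and 0 lower, where 0.624% of all tested genes were higher and 0.448% lower. At an unadjusted p under 0.05 the counts were 3 higher, with TMSB4X (log2 fold change 0.21) and VIM (0.27) added, and 0 lower. At that unadjusted threshold 1835 of all 15395 tested genes differed in dnCEBP against EV, in either direction. DESeq2 and limma-voom each called 1 member higher and 0 lower. The members' median was 0.075, against -0.002 for all tested genes. In the direct comparison of dnFOS with dnCEBP, 6 members were lower and 1 higher, where 7.84% of tested genes were lower and 6.83% higher, and the median was -0.36 against 0.024.

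**Figure D1:**
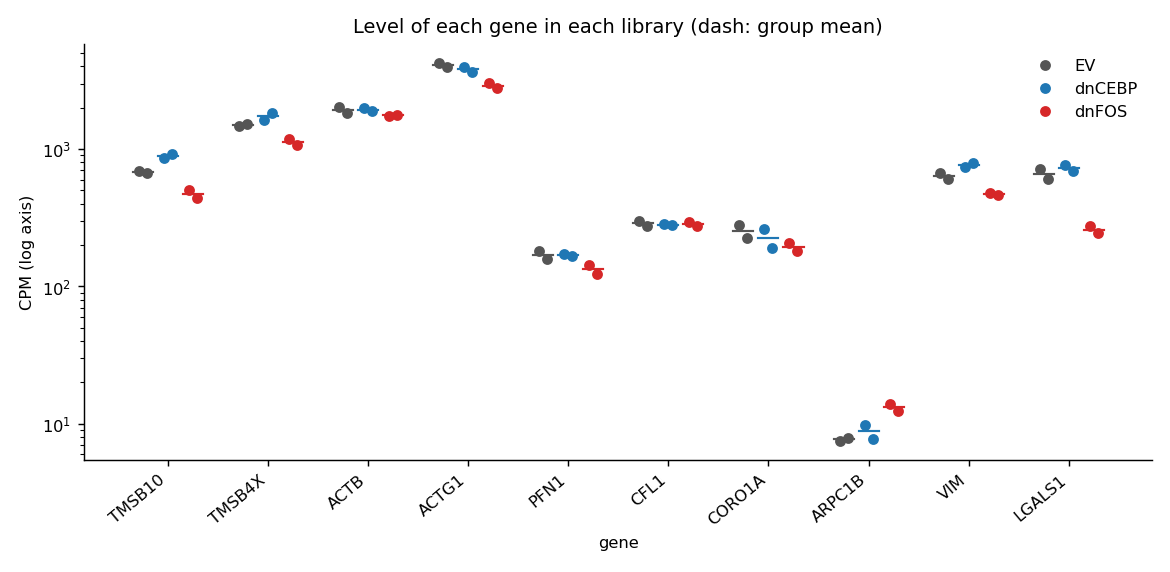
Level of each of the 10 genes in each of the 6 libraries in CPM on a log axis, with EV in grey, dnCEBP in blue and dnFOS in red. Points are libraries and short lines are group means (n = 2). The dnFOS points of LGALS1, at 276.2 and 243.5 CPM, stand well below the other 4, while those of CFL1 overlap with them.

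Both thymosins were lower in dnFOS than in EV, and of them TMSB10 was also called higher in dnCEBP. TMSB10 was measured at 687.9 and 669.9 CPM with EV, 862.6 and 916.3 with dnCEBP, and 502.2 and 440.8 with dnFOS. The 3 groups did not overlap, with dnCEBP highest and dnFOS lowest. Group means were 678.9 ± 12.7 CPM for EV, 889.4 ± 38 for dnCEBP and 471.5 ± 43.4 for dnFOS (SD, n = 2). TMSB10 was 1.44-fold lower in dnFOS than in EV (log2 fold change -0.53 ± 0.087 SE, edgeR adjusted p = 0.000111), 1.31-fold higher in dnCEBP than in EV (0.39 ± 0.086, edgeR adjusted p = 0.0167) and 1.89-fold lower in dnFOS than in dnCEBP (-0.92 ± 0.087, edgeR adjusted p = 7.48e-09). The call in dnFOS held under all 16 alternative settings, while that in dnCEBP was lost without dnCEBP replicate 2 (edgeR adjusted p = 0.266), EV replicate 1 (0.136) or EV replicate 2 (0.207), with the log2 fold change between 0.35 and 0.43 over the libraries left out.

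TMSB4X, the paralog with the higher count, followed the same order. It was measured at 1482.7 and 1511.8 CPM with EV, 1629.4 and 1837.7 with dnCEBP, and 1183.5 and 1076.7 with dnFOS, with no overlap between groups. The fall in dnFOS was 1.32-fold (log2 fold change -0.41 ± 0.087 SE, edgeR adjusted p = 0.00186), and dnFOS was 1.53-fold below dnCEBP (-0.62 ± 0.087, edgeR adjusted p = 8.32e-06). Against EV, TMSB4X in dnCEBP did not pass the test (0.21 ± 0.087, edgeR adjusted p = 0.312).

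Of the actins, ACTG1 passed the test in dnFOS and ACTB did not. ACTG1, the member with the largest count, was measured at 4245.7 and 3940.2 CPM with EV, 3977.1 and 3649.5 with dnCEBP, and 3012.4 and 2799.0 with dnFOS. Both dnFOS libraries lay below the other 4, and the EV and dnCEBP libraries overlapped. ACTG1 was 1.41-fold lower in dnFOS than in EV (log2 fold change -0.49 ± 0.083 SE, edgeR adjusted p = 0.000132) and 1.31-fold lower than in dnCEBP (-0.39 ± 0.083, edgeR adjusted p = 0.00133), and it missed the threshold in dnCEBP (-0.10 ± 0.083, edgeR adjusted p = 0.676). It alone made up 0.413% and 0.39% of the counts in EV and 0.317% and 0.294% in dnFOS.

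ACTB, which encodes beta-actin and is often used as a reference gene, was measured at 2025.8 and 1820.8 CPM with EV, 1990.5 and 1880.4 with dnCEBP, and 1757.0 and 1773.4 with dnFOS. The dnFOS libraries were the lowest, but the distance to EV replicate 2 was smaller than the distance between the EV libraries. The log2 fold change in dnFOS was -0.12 ± 0.084 (SE, edgeR adjusted p = 0.36), and its sign turned to 0.014 with a trend on GC content and length removed. In dnCEBP it was 0.009 ± 0.084 (edgeR adjusted p = 0.981), a value whose sign changed with library totals alone (-0.013) and without dnCEBP replicate 1 (-0.033) or EV replicate 2 (-0.072).

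The ratio of ACTB to ACTG1 counts within a library, which does not depend on how libraries are scaled, was 0.477 and 0.462 with EV, 0.5 and 0.515 with dnCEBP, and 0.583 and 0.634 with dnFOS. The groups did not overlap, and the mean log2 ratio of dnFOS stood 0.37 above that of EV. The ratio of TMSB10 to TMSB4X was 0.464 and 0.443 with EV, 0.529 and 0.499 with dnCEBP, and 0.424 and 0.409 with dnFOS, again without overlap, with a mean log2 difference of -0.12 between dnFOS and EV and of 0.18 between dnCEBP and EV. An exact two-sided permutation test gave p = 0.333 for each of these differences, the smallest p that 2 libraries against 2 can give.

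**Figure D2:**
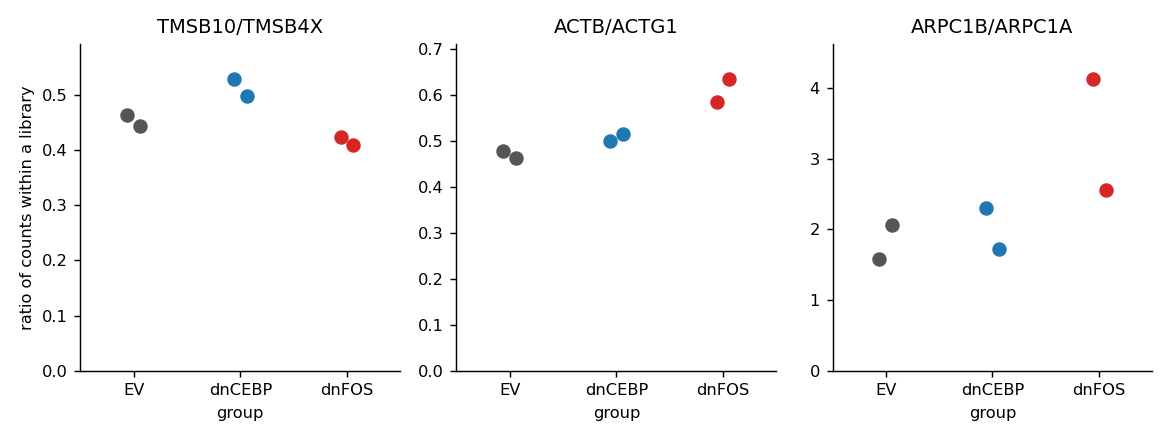
Ratio of the counts of 2 related genes within each library, by group, for TMSB10 over TMSB4X, ACTB over ACTG1 and ARPC1B over ARPC1A. Points are libraries (n = 2 per group) and each axis starts at 0. The ACTB over ACTG1 ratio was 0.583 and 0.634 in dnFOS and at most 0.515 in the other 4 libraries.

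Start regions of 7 of the 10 members (TMSB10, TMSB4X, ACTG1, PFN1, CFL1, CORO1A and VIM) were found in RefSeq (GRCh38.p14), and each window of 250 bases before to 50 after the start was searched on both strands for binding motifs of the families at hand. The AP-1 motif TGANTCA was in 7.71% of 35116 promoters, the related CRE motif TGACGTCA in 1.85%, and neither was in a window of these members. The C/EBP motif TTGCNNAA, found in 10.5% of promoters, was in the window of PFN1 alone, at -176 to -169 relative to the start. The CArG box, the site of serum response factor (SRF), was in 1.29% of promoters and, among the members searched, in that of ACTG1, at -94 to -85. The window of ACTG1 is shown because, of the 7 members' windows searched, it alone holds a CArG box. ACTG1 fell in dnFOS, and so did TMSB10, TMSB4X, PFN1 and VIM, whose windows hold no such box. The start regions of ACTB, ARPC1B and LGALS1 were not searched. The capitals mark the box, and the 120 bases shown are chr17:81512800-81512919, minus strand, up to the base before the RefSeq start.
ACTG1 promoter: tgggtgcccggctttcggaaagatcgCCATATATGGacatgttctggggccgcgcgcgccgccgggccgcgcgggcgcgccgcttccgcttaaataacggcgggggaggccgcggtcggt
No window held the exact letters TATAAA of the TATA box (11.5% of promoters), and variants of these letters were not searched. A match or its absence in these windows is a description of the letters only.

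Among the genes for actin turnover, PFN1 (profilin 1, chromosome 17, 4945652 to 4949061) was called lower in dnFOS, and CFL1 (cofilin 1, chromosome 11, 65823022 to 65862026) did not pass the test. PFN1 was measured at 179.8 and 158.1 CPM with EV, 172.6 and 166.1 with dnCEBP, and 144.4 and 123.7 with dnFOS. The dnFOS libraries lay below the others, and EV and dnCEBP overlapped. Of the exon bases of PFN1, 5.59% also belong to ENO3, and 8.13% of its 75-base windows are shared with other genes. PFN1 was 1.26-fold lower in dnFOS than in EV (log2 fold change -0.33 ± 0.091 SE, edgeR adjusted p = 0.0128), but the call was lost with library totals alone (0.0773), once the trend on GC content and length was removed (log2 fold change -0.14, adjusted p = 0.249), without dnFOS replicate 2 (0.174) and without EV replicate 1 (0.248), all by edgeR. It was also lower in dnFOS than in dnCEBP (-0.34 ± 0.091, edgeR adjusted p = 0.0118), a call that was lost with library totals alone (0.101) and without dnCEBP replicate 1 (0.0842) or dnFOS replicate 2 (0.153).

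CFL1 was measured at 300.0 and 277.1 CPM with EV, 283.8 and 279.2 with dnCEBP, and 295.1 and 275.4 with dnFOS. The ranges of the 3 groups overlapped, and the spread within EV was larger than any difference between group means. Its log2 fold change was -0.016 ± 0.084 in dnFOS and -0.036 ± 0.084 in dnCEBP (SE, edgeR adjusted p = 0.926 and 0.913). The sign in dnFOS turned positive with library totals alone (0.082), with the GC and length trend removed (0.11), and without dnFOS replicate 2 (0.032) or EV replicate 1 (0.042). Of its annotated exon bases, 19% also belong to MUS81 or SNX32. Destrin (DSTN), a close relative of cofilin, stood at -0.014 ± 0.10 on the log2 scale in dnFOS (edgeR adjusted p = 0.95), with the sign turning to 0.084 with library totals alone.

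CORO1A (chromosome 16, 30182827 to 30189076) encodes the coronin of blood cells, and its replicates lay far apart. Its libraries read 281.9 and 225.7 CPM with EV, 263.0 and 190.2 with dnCEBP, and 206.9 and 180.7 with dnFOS. Replicate 1 was the higher one in each group, dnFOS lay below EV without overlap, and dnCEBP overlapped both. The log2 fold change in dnFOS was -0.39 ± 0.16 (SE, edgeR adjusted p = 0.157), close in size to that of TMSB4X (-0.41 ± 0.087) but with a wider error. It passed the threshold in 6 of 16 alternatives, among them limma-voom (adjusted p = 0.0397) and the fit to the 4 libraries of the groups compared (0.00737), and missed it by DESeq2 (0.286). A replicate block is not among these 16. With it, the edgeR adjusted p of CORO1A in dnFOS was 0.000101 against EV and 0.0434 against dnCEBP (0.429 without the block). Whether the replicate numbers pair the samples was not shown. In dnCEBP CORO1A was at -0.16 ± 0.16 (edgeR adjusted p = 0.765), and the sign turned to 0.051 without dnCEBP replicate 2. Of its exon bases, 11.1% also belong to the antisense gene AC012645.3, and 12.8% of its 75-base windows are shared with other genes. Of the 5 coronins tested, 0 passed the edgeR test in any of the 3 comparisons. At an unadjusted p under 0.05, 2 were lower in dnFOS against EV, 1 was higher and 1 lower in dnCEBP against EV, and 0 differed between dnFOS and dnCEBP. In the same order, 4291, 1835 and 4209 of all 15395 tested genes passed that unadjusted threshold. The edgeR test called 2309, 165 and 2259 of them. Of the coronins, DESeq2 called 0 in each comparison, and limma-voom called 1 lower in dnFOS against EV. In dnFOS against EV, CORO1B was at -0.55 ± 0.20 (edgeR adjusted p = 0.0638), CORO7 at -0.23 ± 0.20, CORO1C at 0.058 ± 0.095 and CORO2A, with 12 to 30 counts per library, at 1.10 ± 0.54.

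ARPC1B (chromosome 7, 99374249 to 99394816) encodes a subunit of the Arp2/3 complex and was the only member that rose in dnFOS. It had 179 and 173 counts with EV, 267 and 161 with dnCEBP, and 215 and 128 with dnFOS, equal to 7.51 and 7.92, 9.88 and 7.77, and 14 and 12.4 CPM. Both dnFOS libraries lay above the other 4, and EV and dnCEBP overlapped. ARPC1B was 1.72-fold higher in dnFOS than in EV (log2 fold change 0.78 ± 0.18 SE, edgeR adjusted p = 0.00388), a call that held under all 16 alternatives. Against dnCEBP it was 1.49-fold higher (0.58 ± 0.18, edgeR adjusted p = 0.0277), which was lost by DESeq2 (0.0627) and without dnCEBP replicate 2 (0.21), dnFOS replicate 1 (0.19) or dnFOS replicate 2 (0.0523). Its value is uncertain, since the read-through gene AC004922.1 holds 70% of the 75-base windows of its principal transcript, and reads common to both can be dropped or split by the counting. AC004922.1 itself had 0 to 6 counts per library. How many reads of ARPC1B were lost in this way was not tested.

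The other subunits of the complex showed no common direction in dnFOS. Of all 9 Arp2/3 genes, 2 rose (ARPC1B and ACTR2) and 1 fell (ARPC3), where 7.24% of all tested genes were higher and 7.76% lower. ACTR2 was at 216.4 and 235.8 CPM in EV and 281.0 and 391.8 in dnFOS, higher by 0.57 ± 0.11 (log2, SE, edgeR adjusted p = 0.00213), a difference of 0.31 without dnFOS replicate 2, of 0.79 without dnFOS replicate 1 and of 0.34 after correction for GC content and length. ARPC3 had a log2 difference of -0.28 (SE 0.088, edgeR adjusted p = 0.0276). That call was lost with library totals alone (adjusted p = 0.132), without dnFOS replicate 2 and without either EV library, and adjusted p-values over the 16 alternatives reached 0.191. Not called were ACTR3 (-0.075), ARPC1A (-0.091), ARPC2 (-0.16), ARPC4 (-0.22), ARPC5 (0.23) and ARPC5L (0.091) in log2 fold change, and the signs of ACTR3 and ARPC1A turned with library totals alone (0.023 and 0.009). Corrected for GC content and length, ACTR3 was called lower (-0.42, adjusted p = 0.000188). ARPC5 was called higher with library totals alone (0.33, adjusted p = 0.00564) and with genes filtered on a mean of at least 1 CPM, and with a replicate block ARPC5 and ARPC4 (-0.22) were both called. In dnCEBP against EV, 0 of the 9 subunits passed by edgeR, DESeq2 or limma-voom, and 2 were higher at an unadjusted p under 0.05. Of all tested genes, 0.624% were called higher and 0.448% lower there by edgeR, and 1835 of 15395 had an unadjusted p under 0.05.

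ARPC1A, which encodes the alternative form of the ARPC1B subunit and shares 58.4% of its exon bases with the same read-through gene, had 50 to 116 counts per library. The ratio of ARPC1B to ARPC1A counts was 1.58 and 2.06 with EV, 2.3 and 1.73 with dnCEBP, and 4.13 and 2.56 with dnFOS. The dnFOS libraries were highest, and the mean log2 ratio was higher by 0.85 than in EV, at the smallest possible p of 0.333 (exact permutation test). Leaving out one library at a time gave differences between 0.50 and 1.19.

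VIM (chromosome 10, 17228259 to 17237593) followed the order seen in the thymosins. It was measured at 671.5 and 601.8 CPM with EV, 738.9 and 795.1 with dnCEBP, and 483.0 and 461.6 with dnFOS, without overlap between the groups. VIM was 1.35-fold lower in dnFOS than in EV (log2 fold change -0.43 ± 0.086 SE, edgeR adjusted p = 0.000943) and 1.62-fold lower than in dnCEBP (-0.70 ± 0.086, edgeR adjusted p = 1e-06). The call against EV was lost without EV replicate 1 (log2 fold change -0.35, edgeR adjusted p = 0.0611). In dnCEBP the difference from EV, 0.27 ± 0.086, missed the threshold (edgeR adjusted p = 0.149) and passed it with the GC and length trend removed (0.32, adjusted p = 0.0184). Of its exon bases, 24.4% also belong to the antisense genes VIM-AS1 and AL133415.1, and the use of strand in counting is not given in the sources used here. VIM-AS1 had 74 to 217 counts per library and a log2 difference of 0.18 ± 0.20 between dnFOS and EV (edgeR adjusted p = 0.596).

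The other intermediate filament genes in dnFOS are given for context. Of 10 tested, VIM included, 5 fell in dnFOS, with a median log2 fold change of -0.41. Of all tested genes, 7.76% fell and 7.24% rose, with a median of 0.004. LMNA, which encodes lamins A and C of the nuclear envelope, had 160 and 139 counts with EV, 219 and 140 with dnCEBP, and 38 and 34 with dnFOS. Its dnFOS libraries were lower by a log2 difference of -1.21 ± 0.25 (edgeR adjusted p = 0.00113). KRT8, a keratin of simple epithelia, was at 12.8 and 9.48 CPM in EV and 6.51 and 6.28 in dnFOS (-0.80 ± 0.19, edgeR adjusted p = 0.00499), and was not called without EV replicate 1 (-0.56, adjusted p = 0.148). In dnCEBP against EV, 0 of the 10 passed by edgeR, DESeq2 or limma-voom, and at an unadjusted p under 0.05 there were 1 higher and 1 lower. Among all tested genes, edgeR called 0.624% higher and 0.448% lower there, and 1835 of 15395 had an unadjusted p under 0.05.

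LGALS1 (chromosome 22, 37675608 to 37679806) had the largest log2 fold change of the 10 genes in dnFOS against EV. It was measured at 719.8 and 609.4 CPM with EV, 772.6 and 692.1 with dnCEBP, and 276.2 and 243.5 with dnFOS. The dnFOS libraries were far below the other 4, and EV and dnCEBP overlapped. Group means were 664.6 ± 78.1 CPM for EV, 732.3 ± 56.9 for dnCEBP and 259.9 ± 23.1 for dnFOS (SD, n = 2). LGALS1 was 2.56-fold lower in dnFOS than in EV (log2 fold change -1.35 ± 0.095 SE, edgeR adjusted p = 6.42e-11) and 2.82-fold lower than in dnCEBP (-1.49 ± 0.095, edgeR adjusted p = 3.32e-12). Over the alternatives the log2 fold change against EV ran from -1.48 to -1.13 with every adjusted p at or below 4.1e-08. In dnCEBP it was 0.14 ± 0.093 (edgeR adjusted p = 0.59). LGALS1 shares no exon base with another annotated gene and no 75-base window with another transcript.

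LGALS3, the galectin with a collagen-like domain, was lower in dnFOS too, at 7.01 and 6.04 CPM with EV, 7.92 and 6.71 with dnCEBP, and 4.1 and 3.77 with dnFOS. Against EV the log2 difference was -0.72 (SE 0.23, adjusted p = 0.0305 by edgeR), and the call held in 9 of 16 alternatives and was missed by DESeq2 (0.0626). The other 3 of the 5 galectins tested were not called in dnFOS, where 7.76% of all tested genes were lower and 7.24% higher.

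**Figure D3:**
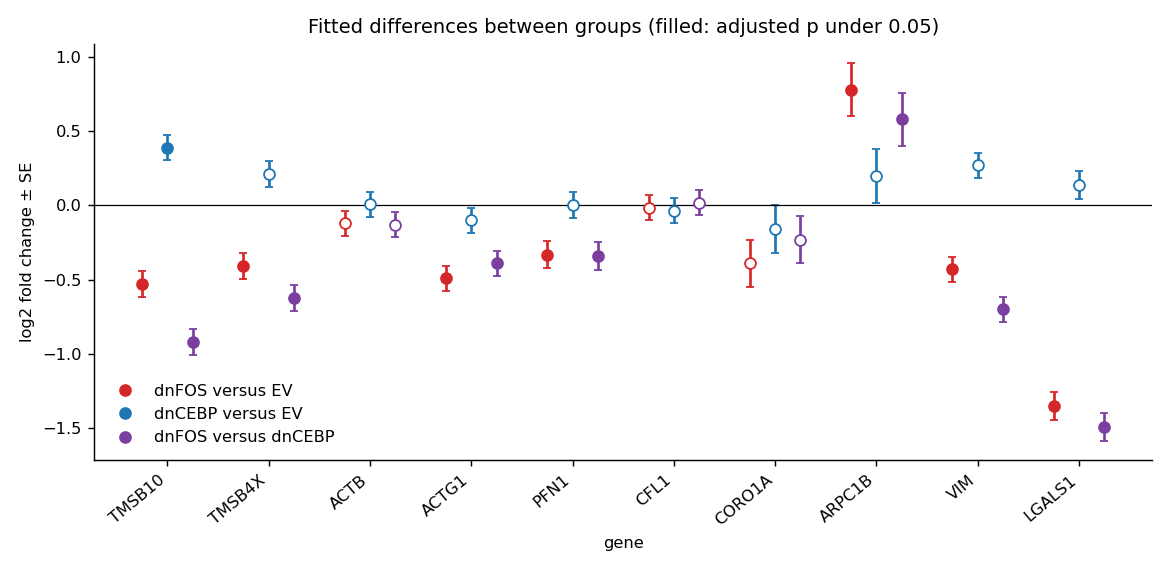
Fitted log2 fold change of each of the 10 genes in the 3 comparisons, dnFOS versus EV in red, dnCEBP versus EV in blue and dnFOS versus dnCEBP in purple. Bars are standard errors from the edgeR fit and filled points have an adjusted p under 0.05. LGALS1 reached -1.35 in dnFOS versus EV, ARPC1B was the only member called above 0 there (0.78), and TMSB10 (0.39) was the only one called in dnCEBP versus EV. Both comparisons with EV share the EV libraries.

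Expressed per kilobase of annotated exon, so that genes can be set side by side, TMSB10 and ACTG1 had the highest levels in EV, at 1368.8 ± 25.6 and 1367.5 ± 72.2 CPM per kb (SD, n = 2), which did not differ beyond their spread. TMSB4X followed at 878.1 ± 12.1, then LGALS1 at 604.7 ± 71.1 and ACTB at 546.6 ± 41.2, whose libraries overlapped. VIM was at 123.4 ± 9.55 and PFN1 at 85 ± 7.72 CPM per kb. CORO1A (52.1 ± 8.16) and CFL1 (49.2 ± 2.76) did not differ beyond their spread, and ARPC1B was lowest at 1.93 ± 0.0728, 707.5-fold below TMSB10. The ARPC1B level and this fold are uncertain, since the read-through gene AC004922.1 holds 70% of the 75-base windows of ARPC1B. How many of its reads were lost was not tested. In dnCEBP TMSB10 (1793.2 ± 76.5) stood above ACTG1 (1274.1 ± 77.4), and in dnFOS they overlapped again (950.5 ± 87.5 and 970.8 ± 50.4). In dnFOS LGALS1 (236.5 ± 21) fell below ACTB (501.6 ± 3.29) in CPM per kb. Part of this order depends on the length used. With the principal coding transcript in place of all exons, ACTG1 led in EV (1814.3 ± 95.8), LGALS1 (1186.8 ± 139.5) and ACTB (1001.2 ± 75.5) came before TMSB4X (879.7 ± 12.1). On that length TMSB10 (1793.2 ± 76.5) and ACTG1 (1690.3 ± 102.7) overlapped in dnCEBP, and ACTG1 (1288.0 ± 66.9) stood above TMSB10 (950.5 ± 87.5) in dnFOS. In EV the distance from highest to lowest was 403.3-fold, which also rests on the uncertain ARPC1B level.

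The wider actin machinery was described with 11 gene lists that held 135 further genes, 120 of them tested. In dnFOS against EV, 27 of the 120 fell (22.5%) and 4 rose (3.33%), with a median log2 fold change of -0.16 and 86 genes below 0. Of all tested genes, 7.76% were lower and 7.24% higher in that comparison. In dnCEBP against EV, 1 rose and 1 fell (0.833% each), where 0.624% of all tested genes were higher and 0.448% lower. In dnFOS against dnCEBP, 35 were lower (29.2%) and 6 higher (5%), where 7.84% of all tested genes were lower and 6.83% higher. These lists were compiled with earlier results of these data known.

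Among 13 genes of monomer binding and filament turnover, 6 fell and 1 rose in dnFOS, with the members TMSB10, TMSB4X and PFN1 counted among those that fell. For this and the next lists, the shares of all tested genes were 7.76% lower and 7.24% higher. The glia maturation factors, which detach Arp2/3 branches, went apart, as GMFG fell (-0.43 ± 0.087, edgeR adjusted p = 0.00115) and GMFB rose (0.68 ± 0.12, edgeR adjusted p = 0.000232). The rise of GMFB was 0.30 after correction for GC content and length (adjusted p = 0.0497). Of 10 capping and severing genes, 3 fell, led by GSN, which encodes the filament-severing protein gelsolin (-0.61 ± 0.099, edgeR adjusted p = 8.66e-05), and CAPG, which encodes a capping protein of the gelsolin family (-0.50 ± 0.089, edgeR adjusted p = 0.000289, and -0.28 after the same correction). Of 20 nucleation promoters and formins, 5 fell and 1 rose. FMNL1, a formin of blood cells (-0.51, and -0.31 after the same correction), and EVL, a filament elongation factor (-0.40, not called without dnFOS replicate 2), fell in log2 fold change, and WIPF1, a partner of the WASP proteins, rose (0.29), a call that was kept in 10 of 16 alternatives. It was lost by DESeq2 (adjusted p = 0.0677), by limma-voom (adjusted p = 0.07), after correction for GC content and length (adjusted p = 0.112), without either EV library and without dnFOS replicate 2, where the log2 fold change was 0.099.

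Of 24 crosslinkers, myosin genes and membrane linkers, 5 fell in dnFOS and 22 had a log2 fold change below 0. The share of all tested genes that fell was 7.76%. MYL6, which encodes a myosin light chain, went the way of TMSB10, at 258.9 and 235.6 CPM with EV, 321.9 and 327.8 with dnCEBP, and 158.9 and 145.5 with dnFOS. Its 3 groups did not overlap, and the log2 fold change was -0.70 ± 0.086 in dnFOS (edgeR adjusted p = 1.62e-06) and 0.39 ± 0.085 in dnCEBP (edgeR adjusted p = 0.0142). The call in dnCEBP was lost without dnCEBP replicate 2 and without EV replicate 2, with an adjusted p of up to 0.271. ACTN1, which encodes the crosslinker alpha-actinin 1, was the gene that fell in dnCEBP (-0.47 ± 0.10, edgeR adjusted p = 0.0144), from 54.2 and 56.6 CPM in EV to 37.9 and 41.9 in dnCEBP. This call was lost without dnCEBP replicate 2 and without either EV library, with an adjusted p of up to 0.321.

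Of 13 genes of the axis of SRF and its actin-sensing partners, 4 fell in dnFOS, where 7.76% of tested genes fell and 7.24% rose. ACTG1, a member, was among these 4, and the others were already counted with the crosslinkers, myosin genes and membrane linkers. ZYX, which encodes the adhesion protein zyxin, fell from 93.4 and 88.9 CPM in EV to 58.4 and 51.9 in dnFOS (-0.72 ± 0.099, edgeR adjusted p = 9.94e-06), a difference of -0.46 after correction for GC content and length. The regulators themselves did not pass the test, with SRF at -0.13 ± 0.13, MRTFA at -0.10 ± 0.13 and MRTFB at 0.39 ± 0.17 in log2 fold change (edgeR adjusted p = 0.556, 0.65 and 0.123). The signs of SRF (0.069) and MRTFA (0.095) turned with the GC and length trend removed. Of 10 tubulin and stathmin genes, 2 fell, TUBA4A (-0.86 ± 0.22) and TUBB6 (-0.75 ± 0.16), and STMN1, which encodes the microtubule destabiliser stathmin, rose by 0.38 ± 0.083 (edgeR adjusted p = 0.00733, 0.00159 and 0.00201). Without EV replicate 1 neither TUBA4A (-0.67) nor TUBB6 (-0.56) was called, and TUBA4A was not called without dnFOS replicate 2 (-0.71).

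**Figure D4:**
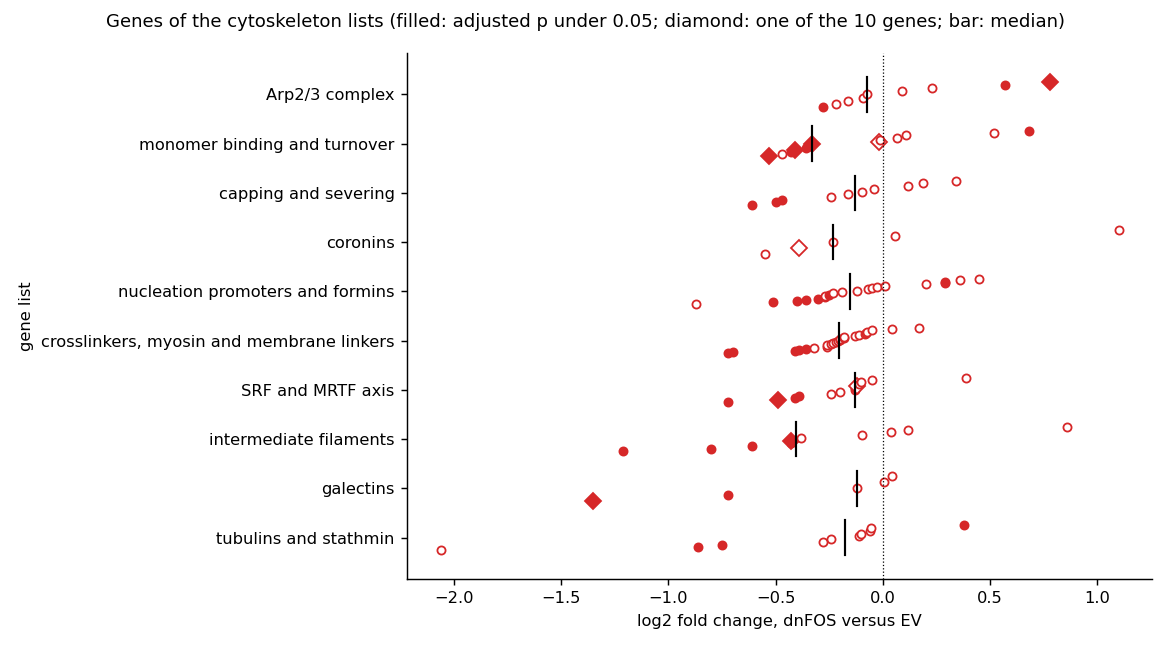
Log2 fold change of each tested gene in 10 of the 11 cytoskeleton lists in dnFOS versus EV, 1 row per list. Filled symbols have an edgeR adjusted p under 0.05, diamonds are the described 10 genes where a list holds them, and bars are list medians. Called genes lie mostly left of 0, and the list medians run from -0.41 (intermediate filaments) to -0.075 (Arp2/3 complex).

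Across the 6 libraries the members did not vary as 1 group. The Pearson correlation of each member's log2 CPM with the mean of the 10 standardised profiles lay between 0.802 and 0.987 for 8 members, and was 0.398 for CFL1 and -0.709 for ARPC1B. Each member is part of that mean, and the points share their libraries and depth. The mean profile was 0.67 and -0.056 with EV, 0.66 and 0.26 with dnCEBP, and -0.47 and -1.07 with dnFOS, with both dnFOS libraries at the bottom and replicate 1 above replicate 2 in each group. Among 8318 genes with a mean of at least 10 CPM, those most like this mean were RALY (r = 0.999) and SNRPB (0.994), which encode proteins of RNA processing, NDUFA6 (0.993), a subunit of mitochondrial complex I, and SAE1, part of the SUMO-activating enzyme, and the kinase gene PRKD2 (0.992 each). Their log2 fold changes in dnFOS against EV ran from -0.37 (NDUFA6) to -0.15 (SAE1), beside the members' median of -0.40. These correlations over 6 libraries are a description.

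The scaling and base composition moved the size of the differences. With library totals in place of TMM factors, the median log2 fold change of all tested genes in dnFOS against EV rose to 0.10 and that of the members to -0.30. With a trend on GC content and length removed from each library, the members' median was -0.24, and TMSB10 (-0.34), TMSB4X (-0.31), ACTG1 (-0.32), VIM (-0.36), LGALS1 (-1.13) and ARPC1B (0.94) kept their calls while PFN1 lost its own. The GC content of the members' exons ran from 52.8% to 63.3%.

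**Figure D5:**
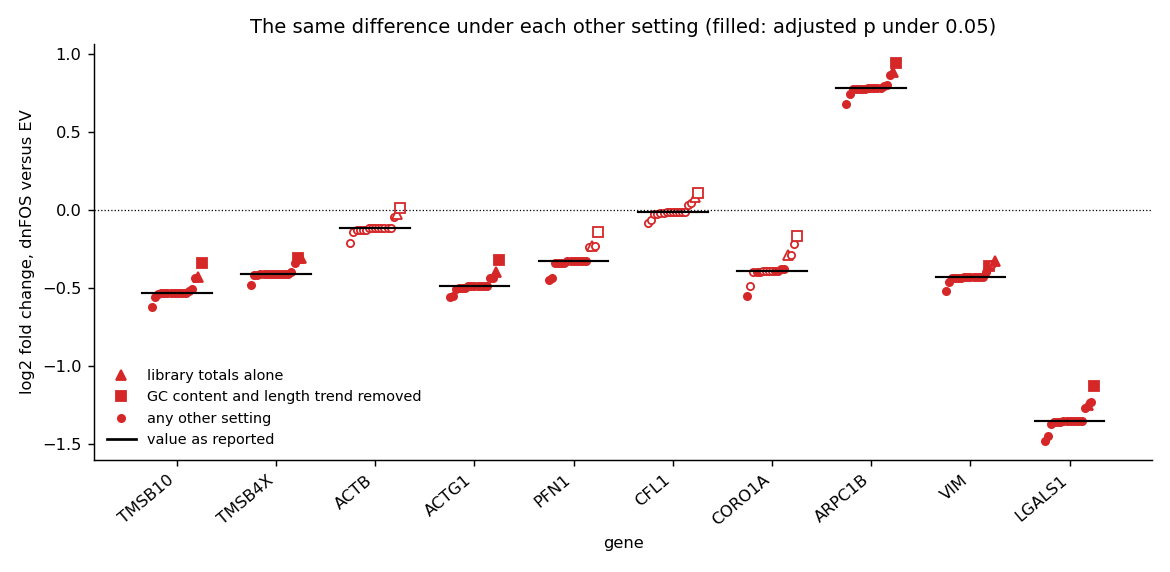
Log2 fold change of each of the 10 genes in dnFOS versus EV under each of 17 other settings. Filled symbols have an adjusted p under 0.05, triangles use library totals alone, squares have a trend on GC and length removed, circles are the other settings and black lines are the values as reported. LGALS1 stays between -1.48 and -1.13 and ARPC1B between 0.68 and 0.94, while CFL1 crosses 0.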

How the data were processed

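RNA from 6 libraries of KO52 cells was examined, 2 per group, with groups and replicate numbers taken from the sample titles. Per the labels, ribosomal RNA was depleted from total RNA, libraries were amplified by PCR and paired-end reads of 75 bases were taken. The authors deposited raw read counts per gene ID, 1 table per library, as whole numbers without normalization. The submitters' processing notes name Trimmomatic, HISAT2, featureCounts, Subread and hg38, and the annotation release and the treatment of strand, overlapping genes and multiply mapped reads are not given in the sources used here.

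Gene IDs were matched to GENCODE 29 on GRCh38 (58394 of 60612), which supplied positions, exon lengths and coding sequences. Differences were tested on these counts in R 4.3.3 using edgeR 4.0.16, after filterByExpr with a minimum count of 10, which kept 15395 of 27870 genes with a count. A quasi-likelihood model with TMM scaling was fitted to all 6 libraries with a mean per group, leaving 3 residual degrees of freedom. Contrasts were two-sided, with Benjamini-Hochberg adjustment across every tested gene, and the standard error is the size of a log2 fold change divided by the root of its F statistic. Scripts were tested on simulated data. Floors of 3 counts cover counting error only, since reads carried no molecular identifiers.

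The members, the 11 gene lists and the settings were chosen with earlier results of these data known. Named besides the members were, for each list and each peptide against EV, up to 2 genes that rose most and 2 that fell most past the threshold with a mean of at least 1 CPM, all Arp2/3 subunits and coronins, DSTN, SRF, MRTFA, MRTFB, and the 5 genes most correlated with the members' mean. One of the lists enters the totals over all lists but is not reported here by itself. All 178 symbols of the lists, marker lists included, were matched to an ID. Alternatives were median-of-ratios size factors, library totals, no filter, a mean of at least 1 CPM, features over 1% of a library left out (5 features), only the 4 libraries compared, a replicate block, each library left out, removal of a GC content and length trend (15222 genes), pseudogene reads added, limma-voom (limma 3.58.1) and DESeq2 1.42.0. For count ratios, leaving out each library was chosen after seeing the data. The block is not counted among the 16 alternatives.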

Additional observations from a re-analysis of the deposited data

How the results depend on the processing

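Of 1105 recomputed log2 fold changes of single genes, 1005 kept their direction and their side of the threshold, 18 gained a call, 50 lost one and 32 changed sign, and the cause of these changes was not tested. The members called ran from 5 to 8 in dnFOS against EV, from 0 to 2 in dnCEBP against EV and from 5 to 7 in dnFOS against dnCEBP over the 16 alternatives. The shallower dnFOS libraries limit the low genes most, ARPC1B among them. Leaving out a library leaves 1 library in its group, which is then assumed to vary like the others.

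Genes called numbered 2309 in dnFOS against EV and ranged from 972 to 2426 when each library was left out (972 without dnFOS replicate 2, 1059 without EV replicate 1). In dnCEBP against EV they numbered 165 and ranged from 33 to 314 (33 without dnCEBP replicate 2), and they were 255 without a filter, 257 with only the 2 groups and 259 with the GC trend removed. In dnFOS against dnCEBP they numbered 2259 and ranged from 1182 to 2262 (1182 without dnFOS replicate 2, 1349 without dnCEBP replicate 1). Among the list genes the calls were 31 in dnFOS, 14 to 37 without 1 library, 2 in dnCEBP, 0 to 6, and 41 between the peptides, 24 to 39.

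The members' median in dnFOS against EV was -0.40, -0.48 to -0.29 without 1 library, -0.30 with library totals and -0.24 with the GC trend removed. In dnCEBP it was 0.075, -0.027 to 0.13, and between the peptides -0.36, -0.45 to -0.28, with -0.24 by library totals and -0.25 with the GC trend removed. In dnCEBP 2 members were called with the GC trend removed, and 0 to 1 without 1 library, with 0 without dnCEBP replicate 2, EV replicate 1 or EV replicate 2. The difference in log2 ACTB over ACTG1 was 0.37 between dnFOS and EV, 0.31 to 0.43 without 1 library. The fold from highest to lowest member per length was 403.3 by principal transcript and 707.5 by all exons. Both rest on ARPC1B, whose reads may be lost to the read-through gene AC004922.1.

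Whether the replicate numbers pair the samples was not shown. The deviations of same-numbered libraries correlated at 0.017, 0.028 and 0.088 between groups over 15395 genes. These correlations count every gene alike, those with few reads included, so they cannot decide it. With a replicate block, calls numbered 3172, 488 and 3013 in the 3 comparisons, and list genes called were 52 in dnFOS and 7 in dnCEBP. In that fit 8 members were called in dnFOS against EV, 2 in dnCEBP against EV and 8 in dnFOS against dnCEBP. CORO1A was among the 8 in both comparisons of dnFOS.

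Signs of uncalled values changed as follows. With library totals alone, log2 fold changes against EV were 0.082 (CFL1), 0.023 (ACTR3), 0.009 (ARPC1A) and 0.084 (DSTN) in dnFOS, and -0.013 (ACTB) and -0.019 (PFN1) in dnCEBP. With the GC trend removed they were 0.014 (ACTB), 0.11 (CFL1), -0.004 (CORO1C), 0.095 (MRTFA) and 0.069 (SRF) in dnFOS, and 0.063 (CFL1) and 0.016 (CORO1A) in dnCEBP. With only the 2 groups PFN1 was -0.002 in dnCEBP, and without a filter CFL1 was -0.003 between the peptides. Without 1 library the values spanned 0 for CFL1 (-0.086 to 0.042), ARPC1A (-0.34 to 0.17), ARPC5L (-0.023 to 0.18), DSTN (-0.088 to 0.062) and SRF (-0.29 to 0.031) in dnFOS against EV. They also did for ACTB (-0.072 to 0.088), PFN1 (-0.093 to 0.099), CFL1 (-0.098 to 0.023) and CORO1A (-0.42 to 0.051) in dnCEBP against EV. They also did for CFL1 (-0.032 to 0.068) and CORO1A (-0.44 to 0.028) in dnFOS against dnCEBP.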
